A study of Arabidopsis thaliana with 9 samples.

Results

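Inflorescence tips of 2 mutants of Arabidopsis thaliana were compared directly with each other: er-2, which carries a mutant allele of the receptor gene ERECTA (ER), and epfl4 epfl6, which carries mutations in both of the ligand genes EPFL4 and EPFL6. The comparison used 6 of the 9 arrays of the series, the 3 titled er-2 and the 3 titled epfl4 epfl6, and the members were taken by these titles. The 3 wild-type (WT) arrays did not enter the main test and are given for orientation. They entered only an alternative fit with all 9 arrays. All 3 genotypes are in the Col-0 background per the labels, which describe er-2 as allelic to er-106. The plants were untreated, grew on soil in continuous light and were 33 days past germination. Each array is a biological replicate per its title, while the number of plants pooled and the stage of the buds are not given in the sources used here.

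ERECTA is a receptor-like kinase of the plasma membrane with leucine-rich repeats outside the cell, and it promotes the elongation of stems and flower stalks and restrains stomatal density together with its relatives ERL1 and ERL2. The EPFL peptides are small secreted proteins rich in cysteine. In the inflorescence stem EPFL4 and EPFL6 are made in the endodermis and act through ERECTA in the phloem, so that loss of the receptor and loss of both ligands give plants of similar compact stature. The receptor also binds other peptides of the family, and its relatives can bind EPFL4 and EPFL6. The comparison asks where the expression profiles of the 2 compact mutants part.

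Signals are log2 values, so that a difference of 1 is 2-fold, and each difference is er-2 minus epfl4 epfl6. Of 22746 probe sets tested, 13513 were assigned to 1 gene and 8730 were unlisted in the annotation used. The mutated genes ER, EPFL4 and EPFL6 are not analysed here, for want of a named probe set, and the arrays gave no check of the genotypes. Among genes that define the tissue, the floral regulators PTL, SPT and SEU and the anther regulator AMS had mean signals of 5.62, 6.44, 6.97 and 8.25 in er-2, against 5.16, 6.44, 6.69 and 8.21 in epfl4 epfl6. These are single members, and their lists were dimmer. The 10 measured floral organ genes averaged 4.80 to 4.90 per array in er-2 and 4.65 to 4.70 in epfl4 epfl6. The 9 of the meristem and organ polarity list averaged 4.99 to 5.06 and 4.83 to 5.02. Both lists lay below the array medians of 5.82 to 5.91. CLV3 of the shoot meristem averaged 2.82 in er-2 and 2.80 in epfl4 epfl6, below the lower quartile of every array, which lay between 3.22 and 3.33. The 3 measured root genes averaged 2.86 to 2.92 per array in er-2 and 2.95 to 3.10 in epfl4 epfl6. Pearson correlations across probe sets were 0.9945 to 0.9973 within a mutant and 0.9873 to 0.9907 between er-2 and epfl4 epfl6, probe sets not being independent. Control probe sets for RNA and labelling also parted the mutants: the excess of the 3′ over the 5′ signal of actin, GAPDH and ubiquitin was 2.08, 2.08 and 2.22 in er-2, against 1.61, 1.72 and 1.67 in epfl4 epfl6. That difference was 0.46, and the 25S ribosomal RNA control differed by 0.54 (two-sided exact permutation tests over 20 splits, p = 0.1 for each, the smallest that 3 against 3 arrays can give). Both controls move with every difference given below, and their effects and those of genotype cannot be told apart.

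The 2 mutants differed at many probe sets, mostly by little. At an adjusted p under 0.05, 4180 probe sets were called, 18.4% of those tested, with 2113 (9.29%) higher and 2067 (9.09%) lower in er-2. The median size of a called difference was 0.385, and the median over all probe sets was 0.021. A difference of at least 2-fold was called at 240 probe sets (1.06%), of which 156 were higher and 84 lower in er-2. At least 4-fold differences numbered 40 higher and 16 lower, and at least 8-fold differences 13 higher and 7 lower. All 4180 called probe sets had arrays that did not overlap between the mutants, which was also the case for 36.5% of all probe sets. For 18379 of the 18566 probe sets that were not called, the 95% confidence interval of the difference lay wholly within 2-fold in either direction. The overall count fell to 2312 without er-2 replicate 1, to 2552 without er-2 replicate 2, to 2554 without epfl4 epfl6 replicate 1 and to 2435 without epfl4 epfl6 replicate 3, while the 2-fold count stayed between 198 and 267 with any array left out.

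**Figure D1:**
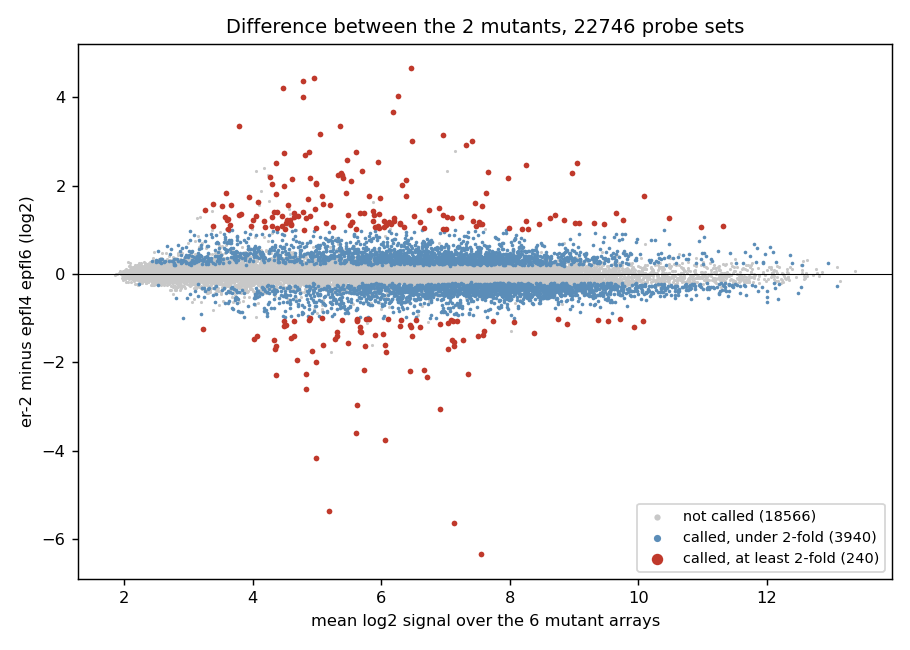
Difference between er-2 and epfl4 epfl6 (log2, positive when higher in er-2) against the mean log2 signal over the 6 mutant arrays, with 1 point per probe set. The 240 probe sets called at 2-fold or more are red, and the widest differences reach further below 0 (−6.35 for ECS1) than above it for any probe set with 1 gene (4.36 for ATA27).

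Among the named genes higher in er-2, 3 are known from the tapetum, the nurse tissue that feeds developing pollen. ATA27 (AT1G75940), a β-glucosidase family gene of the tapetum, had signals of 7.24, 8.66 and 5.01 in er-2, against 2.36, 2.80 and 2.67 in epfl4 epfl6, and averaged 8.95 in WT. The er-2 arrays lay far above the epfl4 epfl6 arrays but were spread over more than 3 log2 units themselves, and epfl4 epfl6 lay below the lower quartile of the arrays. The difference was 4.36 ± 0.785 (SE of the limma fit, 3 arrays per mutant throughout; adjusted p = 0.0102). SHT (AT2G19070), spermidine hydroxycinnamoyl transferase, makes phenolic amides of the pollen coat in the tapetum. Its signals were 5.61, 7.67 and 5.47 in er-2, against 3.28, 3.86 and 3.34 in epfl4 epfl6, a difference of 2.76 ± 0.540 (adjusted p = 0.0138). UND (AT4G12920), an aspartic protease gene of the tapetum that is a target of the tapetal regulator MYB80, had 7.13, 6.76 and 6.60 in er-2 and 5.66, 5.27 and 5.77 in epfl4 epfl6. It differed by 1.26 ± 0.168 (adjusted p = 0.00382), averaged 6.87 in WT and is among the 200 measured probe sets nearest to EPFL4 in gene order. Its highest er-2 array was replicate 1, that of ATA27 and SHT replicate 2. In bulk tissue, fewer cells of a type and less RNA per cell cannot be told apart.

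The anther regulators measured had small differences or were lower. Of 7 measured genes of the anther and tapetum list, ATA27 and SHT were higher, ROXY2 was lower and 4 were not called, with a median difference of 0.00. SPL (AT4G27330, SPOROCYTELESS), which starts the formation of spore mother cells, differed by 0.00 (95% interval −0.27 to 0.28). EMS1, the receptor kinase that specifies the tapetum, differed by −0.05 (−0.25 to 0.14), and AMS, a transcription factor of the later tapetum, by 0.04 (−0.13 to 0.22). ROXY2, a glutaredoxin gene of early anther development, had 5.67, 5.64 and 5.38 in er-2, against 6.22, 6.02 and 6.09 in epfl4 epfl6, a difference of −0.55 ± 0.0953 (adjusted p = 0.00921). The 6 measured genes of pollen and pollen tubes, ANX1, ANX2 and MGH3 among them, averaged 3.09 to 3.20 per array in er-2 and 2.96 to 3.17 in epfl4 epfl6, and none was called. These averages fell short of 3.22, the smallest lower quartile among the arrays. Only 1 of the 6 genes remained once the dimmest probe sets were left out. With signals this dim, the lack of calls cannot show that pollen transcripts were alike in the mutants.

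Only probe sets with 1 gene were ranked by size, and 121 of the 240 called at 2-fold or more had 1 gene. Among their 10 largest differences with er-2 higher, er-2 replicate 2 had the highest er-2 signal in all 10. The WT mean exceeded the er-2 mean in 9 of them. The set held ATA27, SHT and QQS, described below, and 7 genes known here by locus tag. AT1G68875 had 6.58, 8.11 and 5.02 in er-2, against 2.29, 2.56 and 2.25 in epfl4 epfl6, and averaged 8.27 in WT. AT1G30020 had 6.08, 7.93 and 6.38 in er-2, against 2.72, 3.02 and 2.60 in epfl4 epfl6. In both, as in ATA27 and SHT, er-2 replicate 2 had the highest signal of the er-2 arrays. No er-2 array overlapped with epfl4 epfl6, which was a condition of being named. The other locus tags were AT5G13380 (difference 3.35), AT5G17340 (3.16), AT1G02813 (3.01), AT1G76470 (3.00) and AT5G16960 (2.77). Over all 156 probe sets at least 2-fold higher in er-2, er-2 replicate 2 was the highest er-2 array at 108. Without that array 145 of the 156 were still called, and 122 of them at 2-fold or more; the difference was then 3.52 for ATA27 and 2.05 for SHT. The calls of ATA27, SHT and AT5G16960 ended with a robust variance trend, and those of SHT and AT5G16960 also without epfl4 epfl6 replicate 1 or replicate 3, with adjusted p of at most 0.0622 for SHT, 0.0513 for ATA27 and 0.0529 for AT5G16960.

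QQS (AT3G30720) is a gene found in Arabidopsis and not in other plant families, and it influences how carbon and nitrogen are shared between starch and protein. Its signals were 8.47, 9.05 and 8.84 in er-2, against 5.87, 6.03 and 5.71 in epfl4 epfl6, and 10.31 on average in WT. The arrays of each mutant lay close together, and the difference of 2.91 ± 0.151 (adjusted p = 0.000111) was 7.54-fold. The others of the 10 largest differences among descriptive symbols higher in er-2 lay between 1.09 and 1.58. BGLU33, a β-glucosidase family gene, had 5.87, 5.98 and 5.82 in er-2 and 4.46, 4.04 and 4.44 in epfl4 epfl6, where the WT mean of 4.31 also lay. LOV1 is of the nucleotide-binding leucine-rich repeat class, which includes disease resistance genes. It had 5.42, 4.98 and 5.06 in er-2 and 3.95, 3.90 and 3.94 in epfl4 epfl6. The metallothionein gene MT1C, of a family of small proteins that bind metal ions, had 6.75, 6.87 and 6.58 in er-2, against 5.38, 5.58 and 5.82 in epfl4 epfl6. Arrays that did not overlap were a condition for naming these 3 genes, and their adjusted p were 0.000558, 0.00112 and 0.00197.

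The widest difference among probe sets with 1 gene was in the opposite direction. ECS1 (AT1G31580), a small cell wall protein gene first described in responses to pathogens, had 4.42, 4.52 and 4.21 in er-2, against 10.57, 10.77 and 10.84 in epfl4 epfl6. It differed by −6.35 ± 0.102 (adjusted p = 2.34e-07), a fold of 81.4, and its WT mean of 10.88 was close to epfl4 epfl6. AT1G23960 had 2.35, 2.73 and 2.46 in er-2, below the lower quartile of the arrays, and 7.89, 7.87 and 7.87 in epfl4 epfl6. AT1G11280 differed by −3.76, AT1G06640 by −3.06 and AT1G12400 by −2.95. The 10 largest differences with er-2 lower are again those at probe sets with 1 gene. Among them the SD over the 3 arrays of a mutant was at most 0.376 in er-2 and 0.422 in epfl4 epfl6. In the 10 largest with er-2 higher it reached 1.84 in er-2 and 1.22 in epfl4 epfl6. Tighter arrays were thus found at the 84 probe sets at least 2-fold lower in er-2, the median SD being 0.155 in er-2 and 0.138 in epfl4 epfl6, against medians of 0.324 and 0.198 for the 156 that were higher.

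Genes lower in er-2 with descriptive symbols belonged to several families. JAL23 (AT2G39330), a jacalin-related lectin gene, had 6.23, 6.29 and 6.12 in er-2, against 8.10, 8.93 and 8.40 in epfl4 epfl6, and averaged 6.73 in WT, nearer to er-2. The pectin methylesterase gene ATPMEPCRB had 4.86, 4.56 and 5.40 in er-2, against 6.83, 6.40 and 6.49 in epfl4 epfl6, and its WT mean of 6.84 was nearer to epfl4 epfl6. ARPN, a plantacyanin gene of the pistil, had 8.85, 8.88 and 8.82 in er-2, against 9.98, 9.86 and 9.83 in epfl4 epfl6, with WT between them at 9.17. For JAL23 and ARPN the WT mean thus lay between the mutants and nearer to er-2, and for ATPMEPCRB it lay above both. TBL26, of a family that includes enzymes acetylating wall polysaccharides, differed by −1.03 ± 0.112 and the cysteine proteinase gene CP1 by −1.02 ± 0.143. STZ, a zinc finger gene responsive to stress, had 4.69, 4.17 and 4.98 in er-2 and 6.63, 5.45 and 5.99 in epfl4 epfl6 (adjusted p = 0.0196). Its call ended with all 9 arrays in the fit and without er-2 replicate 1, er-2 replicate 2 or epfl4 epfl6 replicate 3, with adjusted p up to 0.0731.

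**Figure D2:**
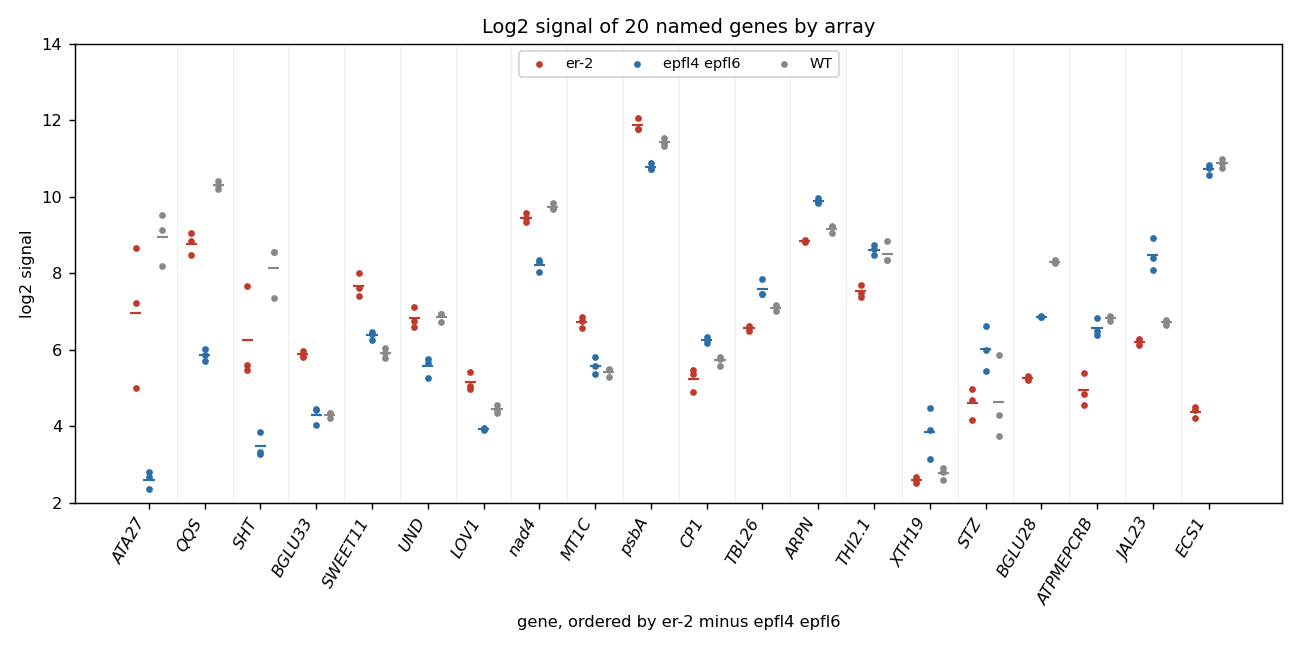
Log2 signal of the 20 named genes with descriptive symbols, ordered by er-2 minus epfl4 epfl6, with er-2 in red, epfl4 epfl6 in blue and WT in grey. Points are arrays and bars are means of 3 arrays; ATA27 and SHT have er-2 arrays spread widely below WT, and ECS1 has er-2 alone at a low signal.

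The wild-type mean was nearer to er-2 for most of the probe sets that were higher there. Of the 156 probe sets at least 2-fold higher in er-2, the WT mean was nearer to er-2 at 119 (76.3%) and nearer to epfl4 epfl6 at 37 (23.7%). At 98 of them WT lay above er-2, so that the signals were ordered WT, er-2, epfl4 epfl6, as for ATA27, SHT and QQS. The 3′ over 5′ control index had the same order, with means of 2.13 in er-2, 1.67 in epfl4 epfl6 and 2.45 in WT, and the 25S ribosomal RNA control averaged 11.84 in er-2, 11.30 in epfl4 epfl6 and 11.84 in WT; their part in these positions was not tested. At 39 of the 156 WT lay between the mutants, and at 19 it lay below epfl4 epfl6, as for SWEET11 and MT1C. Of the 84 probe sets at least 2-fold lower in er-2, WT was nearer to er-2 at 40 (47.6%) and nearer to epfl4 epfl6 at 44 (52.4%). WT lay between the mutants at 53 of these, beyond epfl4 epfl6 at 21, as for ECS1 and BGLU28, and beyond er-2 at 10. These positions go by the means alone, without a margin. ECS1 averaged 10.88 in WT and 10.73 in epfl4 epfl6, and MT1C 5.42 and 5.59, so that WT and epfl4 epfl6 lay close together. For BGLU28 the means were 8.30 and 6.87. The positions are descriptive and were not tested.

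**Figure D3:**
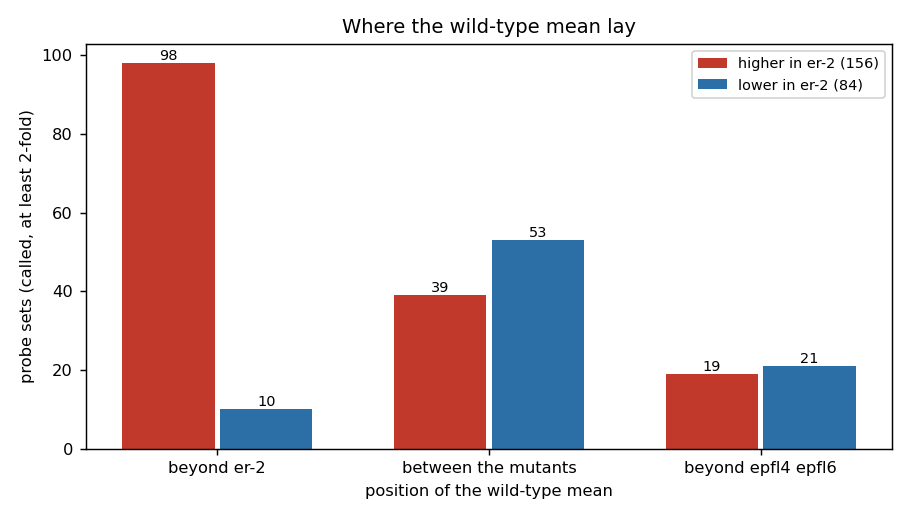
Number of probe sets called at 2-fold or more whose WT mean lay beyond the er-2 mean, between the means of the mutants or beyond the epfl4 epfl6 mean, with red bars for those higher and blue bars for those lower in er-2. The largest class, 98 of 156, has WT beyond er-2, while 53 of the 84 lower in er-2 have WT between the mutants.

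Of the ERECTA pathway, only STOMAGEN (AT4G12970) had a named probe set. It encodes a peptide of the same family that competes with its inhibitory relatives at the receptor and promotes stomata. STOMAGEN had 8.32, 8.28 and 8.19 in er-2, against 8.03, 8.06 and 8.12 in epfl4 epfl6; the arrays did not overlap, but the difference of 0.19 missed the threshold (adjusted p = 0.0701). Stomata form through the successive transcription factors SPCH, MUTE and FMA. MUTE, which ends the divisions of the precursor cells, was lower in er-2, with 4.03, 4.03 and 4.28 against 4.58, 4.57 and 4.55 in epfl4 epfl6, a difference of −0.45 ± 0.0815 (adjusted p = 0.0101), and its WT mean of 4.03 equalled the lowest er-2 signals. SPCH, which starts the lineage, had 5.80, 5.61 and 5.83 in er-2 and 5.44, 5.61 and 5.42 in epfl4 epfl6 (adjusted p = 0.0763). FMA, which acts as guard cells form, differed by 0.04 (95% interval −0.13 to 0.20), and CHX20, a cation exchanger of guard cells, by −0.02 (−0.19 to 0.15). For FMA and CHX20 both mutants had means of 6.32 to 6.46, above the WT means of 5.48 and 5.20, and any difference between the mutants was bounded by these intervals. Of the 4 measured genes of the lineage, 1 was therefore called, with a median difference of 0.01.

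Expansins loosen cell walls without cutting them, and xyloglucan endotransglucosylases (XTH) cut and rejoin the xyloglucan chains that tether cellulose. Of 18 measured expansins, EXLB1 was higher in er-2, EXPB3 and EXPA15 were lower and 15 were not called, with a median of −0.06. EXLB1 had 6.58, 6.18 and 6.41 in er-2, against 5.55, 5.38 and 5.34 in epfl4 epfl6, a difference of 0.97 ± 0.109 (adjusted p = 0.00226), and averaged 3.81 in WT, below both mutants. EXPA9 was also above its WT mean of 4.53 in both mutants, but differed between them by −0.09 (95% interval −0.26 to 0.07). The calls of EXPB3 (−0.46) and EXPA15 (−0.27) each ended without any single er-2 array and without epfl4 epfl6 replicate 1 or 3, that of EXPA15 also after a second quantile normalization and with the replicate block, with adjusted p up to 0.104 and 0.135. Of 10 measured genes of the XTH list, which includes EXGT-A3, XTH16, XTH32 and XTH19 were lower in er-2 and none was higher, with a median of 0.03. The share of tested probe sets with er-2 called lower was 9.09%. A robust variance trend, or leaving out the dimmest probe sets, each gave 1 gene of the list higher. XTH16 had 8.59, 8.67 and 8.67 in er-2, against 8.95, 8.95 and 9.12 in epfl4 epfl6, and XTH32 had 8.40, 8.48 and 8.40 against 8.78, 8.66 and 8.92. XTH16 had a WT mean of 9.11 near epfl4 epfl6, whereas XTH32 had 7.71, below both mutants. XTH19 was below the lower quartile in er-2 and had 4.48, 3.14 and 3.92 in epfl4 epfl6. All 3 XTH calls ended without er-2 replicate 1, those of XTH32 and XTH19 also without er-2 replicate 3 or epfl4 epfl6 replicate 3, that of XTH19 without er-2 replicate 2 and that of XTH32 without epfl4 epfl6 replicate 1 and with the replicate block, with adjusted p up to 0.0518, 0.0690 and 0.0925 for XTH16, XTH32 and XTH19. Of 7 cellulose synthase and related genes CSLA03, of the mannan synthase branch, was called, with a difference of 0.52 ± 0.0924.

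In the stem the phloem is where ERECTA is known to act. Of 5 measured phloem genes, SWEET11, a sucrose exporter that loads the phloem, was the only call. SWEET11 had 7.62, 8.01 and 7.40 in er-2, against 6.25, 6.46 and 6.43 in epfl4 epfl6, a difference of 1.29 ± 0.147 (adjusted p = 0.00237). Its WT mean was 5.92, below both. The glucosinolate transporters GTR1 and GTR2 differed by −0.29 (95% interval −0.52 to −0.05) and −0.20 (−0.42 to 0.02), and the protophloem gene OPS by −0.17 (−0.44 to 0.11). None of the 5 measured genes of the procambium was called; CLE41 and CLE44, which encode the phloem peptide that maintains the cambium, differed by 0.07 (−0.07 to 0.21) and −0.33 (−0.63 to −0.03; adjusted p = 0.120).

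Genes of the meristem and of flower organs differed little. ULT1, which limits the size of floral meristems, was called alone among 9 genes of the meristem and organ polarity list. It had 8.25, 8.22 and 8.27 in er-2, against 7.89, 7.86 and 7.82 in epfl4 epfl6, a difference of 0.39 ± 0.0556 (adjusted p = 0.00483). Among 10 floral organ genes, PTL, which keeps sepals apart, and SHI, of a family that promotes style and stamen development, were each higher in er-2 by 0.46 (adjusted p = 0.00957 and 0.0124). PTL had 5.54, 5.57 and 5.75 in er-2 and 5.21, 5.21 and 5.05 in epfl4 epfl6, without overlap, as at all called probe sets. The other 8 were not called, and the list medians were 0.17 and 0.13. None of the 4 genes of ovule and carpel was called. Of 3 genes of the cuticle list, SHN3, an activator of wax synthesis, had 8.30, 8.18 and 8.22 in er-2 and 7.70, 7.67 and 7.67 in epfl4 epfl6 (difference 0.55 ± 0.0586), and the wax ester synthase gene WSD1 differed by −0.51 ± 0.125. The WSD1 call ended with the replicate block, without any single er-2 array and without epfl4 epfl6 replicate 1 or 3, with adjusted p up to 0.0867.

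Hormone genes were called in both directions, with most members not called. Of 8 measured cytokinin genes, the response regulators ARR15 and RR16, which are induced by cytokinin and damp its signal, were higher in er-2. ARR15 had 6.17, 6.45 and 6.50 in er-2, against 5.41, 5.50 and 5.53 in epfl4 epfl6 and a WT mean of 5.39, a difference of 0.89 ± 0.0949 (adjusted p = 0.00187). RR16 had 5.09, 5.71 and 5.24 in er-2 and 4.53, 4.94 and 4.72 in epfl4 epfl6, while its WT mean was 5.65. ARR15 was thus apart from WT in er-2, and RR16 in epfl4 epfl6. The RR16 call ended after a second quantile normalization, after median centring and without any array other than er-2 replicate 1, with adjusted p up to 0.136. Of 19 auxin genes, WES1, GH3.9 and GH3.3, of the family that joins auxin to amino acids, were higher and IAA30, of the repressor family, was lower, with a median of 0.00. WES1 had 7.79, 7.95 and 7.69 in er-2 and 7.29, 7.09 and 7.27 in epfl4 epfl6 (difference 0.59 ± 0.0887, adjusted p = 0.00561). GH3.9 differed by 0.42, GH3.3 by 0.56 and IAA30 by −0.45. All 3 of these calls ended with the replicate block and without er-2 replicate 1, epfl4 epfl6 replicate 1 or epfl4 epfl6 replicate 2, that of GH3.3 also with all 9 arrays, those of GH3.9 and IAA30 also without er-2 replicate 2 and those of GH3.3 and IAA30 without epfl4 epfl6 replicate 3, with adjusted p up to 0.106, 0.111 and 0.135 for GH3.9, GH3.3 and IAA30.

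Of 6 gibberellin genes, SPY, a repressor of gibberellin responses, and the receptor gene GID1A were higher in er-2 by 0.26 and 0.25, and SLY2, of the F-box family that degrades the repressors, was lower by a difference of −0.32. The median was 0.12. All 3 calls ended without er-2 replicate 2, er-2 replicate 3 or epfl4 epfl6 replicate 3, those of SPY and GID1A also with the replicate block and without er-2 replicate 1 or epfl4 epfl6 replicate 2, that of GID1A after a second quantile normalization, after median centring and with all 9 arrays, and those of SLY2 and GID1A without epfl4 epfl6 replicate 1, with adjusted p up to 0.0796, 0.126 and 0.0650 for SPY, GID1A and SLY2. No gene of abscisic acid and dehydration was called among 6, COR15B (−0.26, adjusted p = 0.0566) and COR47 (0.46, adjusted p = 0.0691) being nearest to the threshold.

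In the lists of jasmonate (11 measured genes), of glucosinolates (8) and of salicylate and defence (8), 8 genes were called and each was lower in er-2. The calls of OPCL1 and AOP1 among them ended under 3 and 9 of the alternatives. The pooled count over these 3 lists was not tested. Outside them, the list of reactive oxygen and glutathione transferases had 1 gene higher and 4 lower. LOV1, outside these lists and of a class that includes disease resistance genes, was higher. Of 11 measured jasmonate genes, 3 (27.3%) were called, against 18.4% of all probe sets in both directions and 9.09% lower in er-2. All 3 were lower, with a list median of −0.09. JMT, which methylates jasmonic acid, had 5.71, 5.66 and 5.71 in er-2, against 6.40, 6.48 and 6.31 in epfl4 epfl6, a difference of −0.70 ± 0.0643 (adjusted p = 0.00107). THI2.1, a thionin gene induced by jasmonate, had 7.69, 7.50 and 7.39 in er-2, against 8.47, 8.64 and 8.75 in epfl4 epfl6, a difference of −1.10 ± 0.102 (adjusted p = 0.00121). The WT means of 6.93 and 8.52 were both nearer to epfl4 epfl6. OPCL1, which activates jasmonate precursors in the peroxisome, differed by −0.84 ± 0.182, and its call ended without er-2 replicate 1, er-2 replicate 2 or epfl4 epfl6 replicate 3 (adjusted p up to 0.0727). The transcription factor genes MYC3 and MYC4 differed by 0.14 (95% interval −0.03 to 0.31) and 0.21 (−0.12 to 0.54). WRKY53, a regulator of senescence and defence, was the only call of 8 salicylate and defence genes (12.5%, against 18.4% of all probe sets). It had 5.38, 5.16 and 5.38 in er-2, against 6.40, 6.25 and 6.17 in epfl4 epfl6 (difference −0.97 ± 0.0903, adjusted p = 0.00119), with a WT mean of 6.41.

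Glucosinolates are sulfur-rich defence compounds of the cabbage family. Of 8 measured genes, 4 were lower in er-2 and none was higher, with a median of −0.26. Of all probe sets, 9.09% were called lower. BGLU28, a β-glucosidase gene induced by lack of sulfur, had 5.31, 5.21 and 5.27 in er-2, against 6.85, 6.87 and 6.90 in epfl4 epfl6, and averaged 8.30 in WT. Both mutants thus lay below WT, er-2 further so, and the difference between them was −1.61 ± 0.0575 (adjusted p = 1.9e-05). UGT74B1, which adds the glucose in glucosinolate synthesis, averaged 6.06 ± 0.0736 in er-2 and 7.02 ± 0.0346 in epfl4 epfl6 (SD, n = 3 each, difference −0.96 ± 0.0623, adjusted p = 0.000305). GSTU20, a glutathione transferase gene tied to the same pathway, differed by −0.69 ± 0.0651. UGT74B1 and GSTU20 had WT means of 6.39 and 8.72, nearer to er-2, unlike BGLU28. AOP1, next to the side-chain genes of the pathway, differed by −0.24, and its call ended with a robust variance trend, with the replicate block, with all 9 arrays and without any single array, with adjusted p up to 0.117. UGT78D1, which adds rhamnose to flavonols, was the only call among 6 flavonoid genes (−0.65 ± 0.0678).

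Among 20 genes of starch and sugar, QQS, SWEET11 and SWEET10 were higher, SWEET7 and APL4 were lower and 15 were not called, with a median of 0.09. SWEET proteins carry sugars across membranes. SWEET7 had 6.77, 6.66 and 6.79 in er-2, against 7.43, 7.72 and 7.83 in epfl4 epfl6, a difference of −0.92 ± 0.107 (adjusted p = 0.00248), opposite to SWEET11. SWEET10 differed by 0.33 ± 0.0656, a call that ended without er-2 replicate 2 or epfl4 epfl6 replicate 1 (adjusted p up to 0.0539). The call of APL4, a subunit of the first enzyme of starch synthesis, ended without er-2 replicate 2, er-2 replicate 3, epfl4 epfl6 replicate 1 or epfl4 epfl6 replicate 3 (adjusted p up to 0.0997). SWEET9, the sucrose exporter of nectaries, had 3.61, 4.83 and 3.98 in er-2 and 3.54, 3.57 and 3.50 in epfl4 epfl6 (adjusted p = 0.172), again with er-2 replicate 2 highest, and is named here after its values were seen. The starch genes DPE1 and SBE2.2 differed by 0.01 (95% interval −0.15 to 0.17) and 0.12 (−0.07 to 0.31).

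Transcripts of the organelle genomes were higher in er-2 wherever they were called. Of 69 measured genes of the chloroplast genome, 18 were higher and none was lower, so that 26.1% were called, against 18.4% of all probe sets in both directions and 9.29% in this one. The median was 0.26, and 62 had a positive difference. psbA, for the D1 protein of photosystem II, had 11.77, 11.77 and 12.07 in er-2, against 10.72, 10.89 and 10.72 in epfl4 epfl6, a difference of 1.09 ± 0.0984 (adjusted p = 0.00104). atpF, for a subunit of the ATP synthase, had 10.54, 10.67 and 10.75 in er-2 and 9.85, 9.97 and 9.80 in epfl4 epfl6, while rpl20 differed by 0.80 and ndhE by 0.52. Of 16 mitochondrial genes, nad4, nad5, cox2 and ccb452 were higher and none was lower, with a median of 0.22. These genes had 23 probe sets, of which 4 were called, against the 9.29% of all probe sets called higher. The 2 probe sets of nad5 disagreed in sign: the called one differed by 0.37, the other by −0.13 and was not called. The complex I subunit gene nad4 of the respiratory chain had 9.34, 9.46 and 9.57 in er-2, against 8.05, 8.35 and 8.30 in epfl4 epfl6, a difference of 1.22 ± 0.0992 (adjusted p = 0.000692). The WT means of atpF (10.52) and nad4 (9.75) were near er-2. The chloroplast count was 8 without er-2 replicate 3 or without epfl4 epfl6 replicate 1, 10 without er-2 replicate 1, 11 without epfl4 epfl6 replicate 2, and 12 with the replicate block, and no gene was called lower under any alternative. The mitochondrial count was 2 with the replicate block and without er-2 replicate 1, er-2 replicate 3, epfl4 epfl6 replicate 1 or epfl4 epfl6 replicate 3. The labelling kit primes at poly(A) tails, which organelle transcripts and ribosomal RNA largely lack, and the 25S ribosomal RNA control was 11.77, 11.79 and 11.96 in er-2, against 11.29, 11.16 and 11.46 in epfl4 epfl6. The part of labelling or RNA quality in the organelle differences was not tested.

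Nuclear genes of photosynthesis mostly had small positive differences, in 11 of 13 measured. Of these, LHCB4.2, an antenna protein of photosystem II, and ATPC2, a subunit of the ATP synthase, were higher in er-2 by 0.53 and 0.32 (15.4% of the list called), none was lower and the list median was 0.09. The number higher was 4 after a second quantile normalization, 3 with a robust variance trend and without er-2 replicate 3, and 1 with the replicate block and without er-2 replicate 1, er-2 replicate 2 or epfl4 epfl6 replicate 3, and the difference from the chloroplast genome was not tested. RCA, which activates Rubisco, differed by 0.02 (95% interval −0.17 to 0.20) and PSAN of photosystem I by 0.00 (−0.18 to 0.18). The LHCB4.2 call ended without er-2 replicate 1 or 2 (adjusted p up to 0.0658), and that of ATPC2 with the replicate block and without epfl4 epfl6 replicate 3 (up to 0.0577). Of 9 genes of chlorophyll synthesis and plastid division, GSA1 and CHLI2, of early steps and of magnesium insertion, were lower by differences of −0.37 and −0.46, and CHLM, of the next step, was higher by 0.25. CHLI2 had 7.59, 7.63 and 7.52 in er-2 and 8.16, 7.92 and 8.04 in epfl4 epfl6, and its WT mean of 7.15 was below both. The CHLM call ended with the replicate block and without any single array (adjusted p up to 0.0881).

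In the remaining lists, called members were few. The circadian gene GI, which links the clock to flowering, had 6.77, 6.53 and 6.55 in er-2, against 6.01, 5.98 and 5.75 in epfl4 epfl6, a difference of 0.70 ± 0.0981 (adjusted p = 0.00457), and was called among 3 clock genes. AGL18, a MADS-box repressor of flowering, had 5.50, 5.68 and 5.83 in er-2 and 5.09, 5.02 and 5.07 in epfl4 epfl6 (0.61 ± 0.0883), the only call of 12 flowering time genes. Both genes had WT means, 6.47 and 5.91, near er-2. AUR2, a kinase of mitosis, was lower in er-2 (−0.46 ± 0.0662), with 5 other cell cycle genes not called, and so was HTR12, the centromeric histone (−0.46 ± 0.0932), among 6 histone genes. The HTR12 call ended without er-2 replicate 1 or epfl4 epfl6 replicate 1 (adjusted p up to 0.0578). HIS1-3, a linker histone induced by drought, had 3.72, 5.51 and 3.03 in er-2 and 2.58, 2.72 and 2.69 in epfl4 epfl6; it differed by 1.42, was not called (adjusted p = 0.116) and is named here after its values were seen. Of 18 genes of reactive oxygen and glutathione transferases, 1 was higher and 4 were lower, with a median of 0.00. The number lower was 2 with the replicate block, with all 9 arrays and without er-2 replicate 3 or epfl4 epfl6 replicate 1, and 1 without er-2 replicate 1, er-2 replicate 2 or epfl4 epfl6 replicate 3. The number higher ranged between 0 and 3. No gene of light signalling and shade was called among 3.

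**Figure D4:**
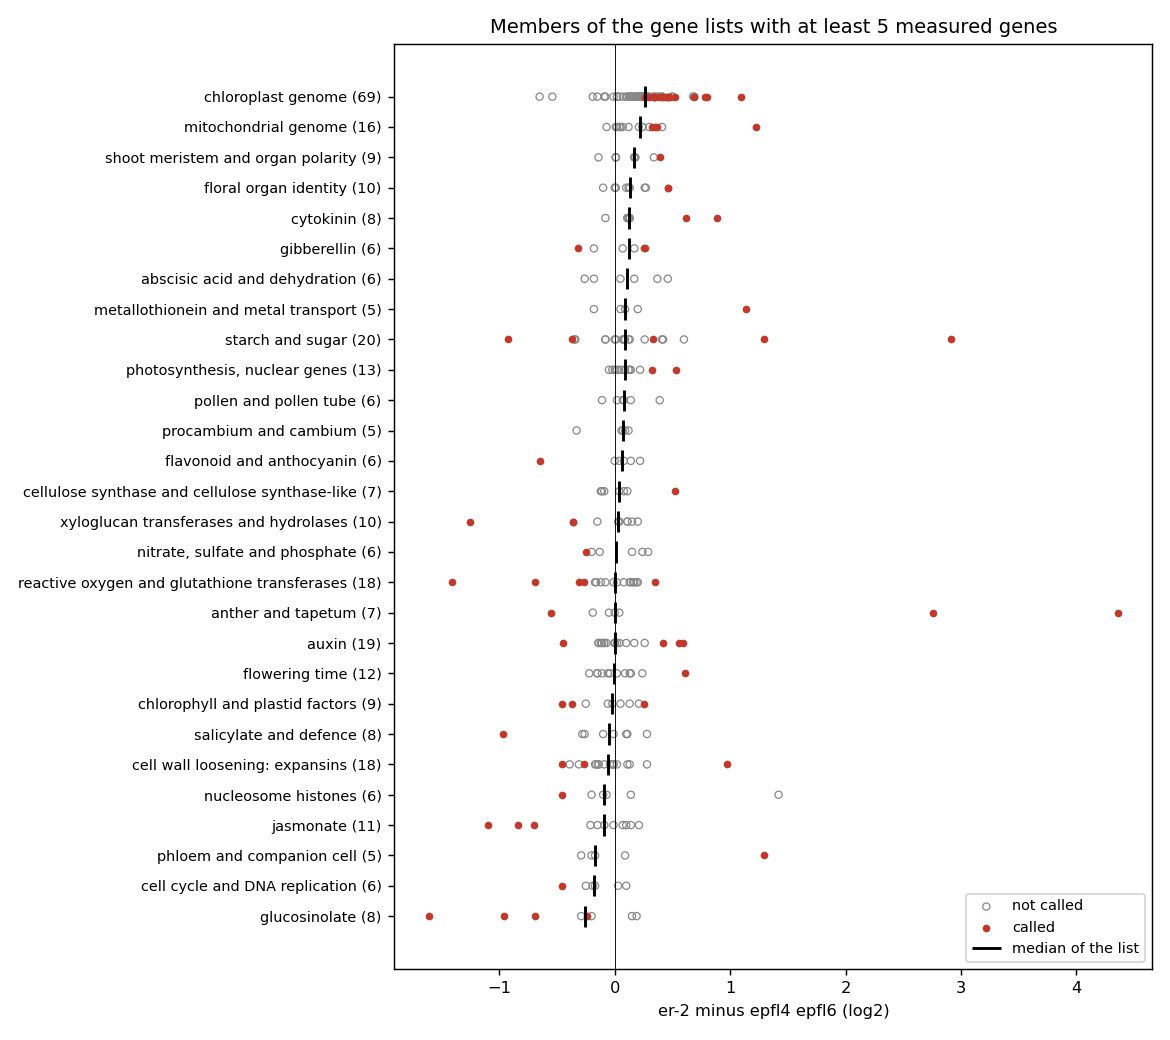
Difference between er-2 and epfl4 epfl6 (log2) for each measured gene of the lists with at least 5 measured genes, with the number measured in brackets, called genes filled and a bar at each median. Medians run between −0.26 for the glucosinolate list and 0.26 for the chloroplast genome, and the anther and tapetum list has a median of 0.00 with ATA27 and SHT far to the right.

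Families with a shared symbol and at least 8 measured genes, chosen with the annotation in view, gave a few groups with several calls, named after their values were seen. As a background, er-2 was called higher at 9.29% of the tested probe sets and lower at 9.09%. No family was tested against this background. Of 22 TBL genes, 7 were higher and 2 lower in er-2, with a median of 0.05 that was −0.01 after a second quantile normalization. TBL36 had 8.24, 8.18 and 8.08 in er-2, against 7.57, 7.58 and 7.65 in epfl4 epfl6 (difference 0.56 ± 0.0656), opposite to TBL26. Of 20 β-glucosidase genes, BGLU33 was higher and BGLU28, BGLU40, BGLU15, BGLU44 and BGLU25 were lower, with a median of −0.08. BGLU40 had 6.66, 6.77 and 6.66 in er-2, against 7.47, 7.49 and 7.42 in epfl4 epfl6. Of 47 UGT genes, which encode glycosyltransferases of small molecules, 6 were higher and 5 lower. The number higher was 4 after a second quantile normalization and without er-2 replicate 1, and 3 with the replicate block and without er-2 replicate 2, epfl4 epfl6 replicate 1 or epfl4 epfl6 replicate 3. UGT85A5 had 3.96, 4.06 and 4.09 in er-2, against 3.29, 3.28 and 3.30 in epfl4 epfl6, while the flavonol gene UGT78D3, next to UGT78D1 in kind, differed by −0.65.

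Chromosome 1 held more differences of at least 2-fold than any other chromosome, in both directions. Of the probe sets with 1 gene on the 5 nuclear chromosomes, 25.8% were on this chromosome, which held 28 called at least 2-fold higher and 23 called at least 2-fold lower in er-2. Chromosomes 2, 3, 4 and 5 held 10, 13, 11 and 15 higher and 3, 2, 10 and 4 lower. Among the 10 largest differences with er-2 lower at probe sets with 1 gene, 8 were on chromosome 1. All 8 lay between AT1G06640 and AT1G31580 in gene order. The stretch as far as AT1G30130, chosen after these values were seen, held 10.3% of the measured probe sets, 18 of those higher and 18 of those lower. In it 23.6% of the probe sets were called, against 15.7% in the rest of the 5 chromosomes. Among the 200 measured probe sets nearest to ER, 100 on either side, 11.5% were called and none at 2-fold or more. The corresponding share was 22.0% around EPFL6, with AT2G28680 (2.16) and AT2G30600 (1.34 and 1.16 in its 2 probe sets) at 2-fold or more, while 34 of 200 were called around EPFL4, with AT4G12920 (UND), AT4G12930, AT4G14780 and AT4G14815 higher and AT4G16270 lower at 2-fold or more.

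**Figure D5:**
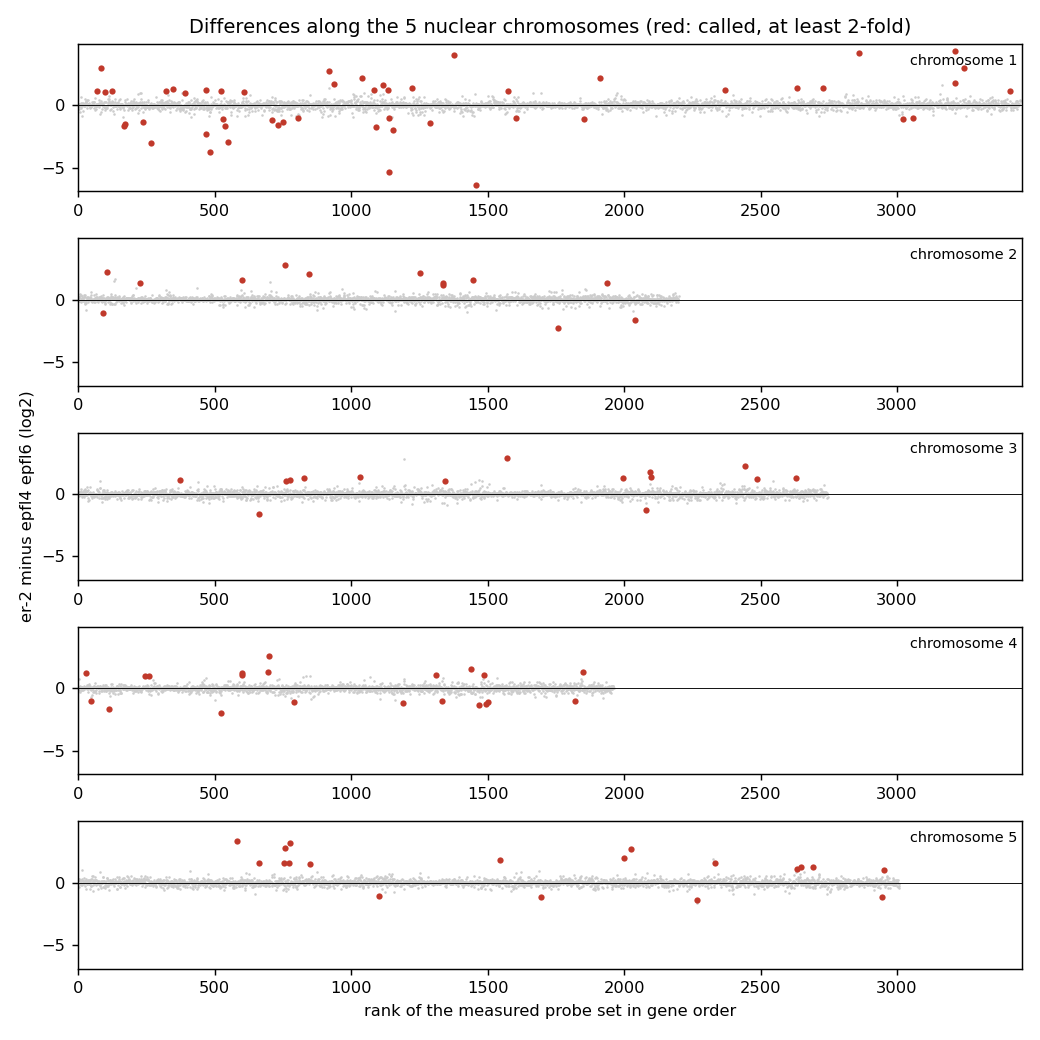
Difference between er-2 and epfl4 epfl6 (log2) against the rank of the measured probe set in gene order, with a panel for each of the 5 nuclear chromosomes. Red points are called at 2-fold or more; chromosome 1 has 28 of them above 0 and 23 below 0, while chromosomes 2, 3 and 5 have 10, 13 and 15 above and 3, 2 and 4 below.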

How the data were processed

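Per the labels' protocols, biotin-labelled cRNA was made from 100 ng of total RNA with a 3′ IVT kit and read on 1-colour Affymetrix arrays. The authors deposited log2 signals, which lay between 1.74 and 13.47 with array medians of 5.82 to 5.91, and these were taken without further normalization. RMA and limma are named in the submitters' processing notes, with versions not given in the sources used here. Of 22810 probe sets, 64 AFFX controls were kept out of the tests.

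The 6 mutant arrays were fitted with limma 3.58.1 in R 4.3.3 (lmFit and eBayes, a mean per mutant, two-sided), with Benjamini-Hochberg adjustment over 22746 probe sets and calls at an adjusted p under 0.05. The script was tested on simulated data. The p-values measure the spread between these 3 and 3 samples; arrays give no read depth, and their number limits the precision. The control index is the mean over 6 pairs of 3′ and 5′ control probe sets.

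Names came from the platform annotation, updated through Entrez identifiers in a RefSeq table (assembly TAIR10.1). That table was also used for gene order, and no coordinates are given. Of probe sets with 1 gene, 1580 had a descriptive symbol and 11933 a locus tag; 503 had several genes. A gene with several probe sets is given by the one with the highest mean.

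Named genes were called, with arrays that did not overlap: the 10 largest differences per direction, the same among descriptive symbols, and up to 4 called genes per list with at least 3 measured (up to 2 not called where a list had no call). Values given for other members of a list are chosen outside that rule. Members, lists and tests were chosen with earlier results of these data known. Of 42 lists, 2 had no measured gene; 9 entries whose symbol belongs to an unrelated gene were dropped, and the chloroplast and mitochondrial lists were formed from the annotation. Alternatives are in the closing section. Promoter sequences were not used here.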

Additional observations from a re-analysis of the deposited data

How the results depend on the processing

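Replicate numbers did not pair the mutants: deviations from the group means correlated at −0.015, −0.081 and −0.113 between same-numbered arrays. With the replicate block, 2717 probe sets were called, 1389 higher and 1328 lower, of which 242 differed by at least 2-fold. A 2-fold minimum in the fit without the block left 240, 156 higher and 84 lower. With each array left out in turn, calls ranged between 2312 and 3375, those higher in er-2 between 1189 and 1610 and those lower between 1123 and 1765; fewer arrays entered these fits. A second quantile normalization, median centring, leaving out the dimmest 30% of probe sets, a robust variance trend, array weights and all 9 arrays kept each of these counts within 1.5 times. Of 35 genes named for their size, 30 were called under all alternatives that gave them a value, and no named gene that was called changed sign. Of 84 named genes that were called, 29 lost the call under at least 1 alternative; the cause was not tested. Counts per list moved by over 1.5 times in 69 cases with fewer calls and 28 with more, of 560. The control index difference ranged between 0.41 and 0.49, and that of the 25S rRNA control between 0.47 and 0.62, with each array left out. Signals below the lower quartile give the least certain sizes.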

Other observations

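A few measured genes of other lists complete the account. Of 6 genes of nitrate, sulfate and phosphate use, APS3, an ATP sulfurylase of sulfate assimilation, had 6.67, 6.58 and 6.58 in er-2, against 6.83, 6.87 and 6.88 in epfl4 epfl6, a difference of −0.25 ± 0.0576 (limma, adjusted p = 0.0234). That call ended with the replicate block and without er-2 replicate 2, er-2 replicate 3 or any single epfl4 epfl6 array (adjusted p up to 0.0761).

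Both measured brassinosteroid genes were called: BRL1, a receptor related to the main receptor of the hormone, was higher in er-2 by 0.27 at signals under the lower quartile of the arrays, and EXO, which the hormone induces, was lower by a difference of −0.39. The BRL1 call ended after a second quantile normalization, with the replicate block and without er-2 replicate 1 (adjusted p up to 0.0635), and that of EXO after a second quantile normalization and without er-2 replicate 1, er-2 replicate 2 or any single epfl4 epfl6 array (up to 0.146). Neither ethylene gene measured, EIN3 and RTE1, was called, nor was either heat shock gene.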
